A study of Mus musculus with 4 samples.

Results

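A set of 10 genes of antigen presentation by molecules of the major histocompatibility complex (MHC) was followed across the 4 arrays of the series. They are H2-K1, H2-D1, B2m, Tap1, Tapbp, Psmb8 and Psmb9, which serve MHC class I, and Cd74, H2-Aa and H2-Ab1, which serve MHC class II. Each gene was found through the gene name that the array files give its non-control probes, and its brightest probe represented it. All 10 members were on the array, of 24791 named genes in all. Of these, 9 were well above background on all 4 arrays, and H2-Aa was well above background on none.

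The cells were RAW264, a macrophage-like line from a BALB/c mouse, so every culture was of 1 line. The 4 groups were cells with siRNA against green fluorescent protein (siGFP) left untreated, siGFP cells with iron, cells with siRNA against Tfe3 and Tfeb (siTfe3/Tfeb) left untreated, and siTfe3/Tfeb cells with iron. All groups were transfected. Iron means 24 hours with ferric chloride at 500 µM, which started 48 hours after the transfection. Tfe3 and Tfeb are transcription factors that activate genes of lysosomes and autophagy. Each group held 1 array, so every difference given here is between single arrays, has no replicate check and allows no test. The SDs given come from spots of 1 probe repeated on an array and cover spotting and scanning only.

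MHC class I molecules are present on nearly all cells and show peptides of the cell's own proteins to cytotoxic T cells. The peptides are cut by the proteasome, whose inducible immunoproteasome form holds Psmb8 and Psmb9, pumped into the endoplasmic reticulum by the TAP transporter, and loaded with the help of tapasin onto a heavy chain paired with beta-2 microglobulin. MHC class II molecules show peptides from endosomes and lysosomes to helper T cells, and macrophages make them mainly after interferon-gamma. Cd74, the invariant chain, holds the class II groove until lysosomal proteases remove it and the H2-DM chaperone exchanges the remnant for a peptide.

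The 75th percentile of the processed signal, on which each array was scaled, lay between 593 and 636, no spot was saturated, between 14299 and 14865 genes were well above background on an array, and 13827 were on every array. Macrophage markers were well above background on all arrays for 10 of 10 genes, with a summed signal between 626026 and 733740. Of the B cell markers 4 of 6 were detected on all arrays (sum 689 to 856), of the T cell markers 2 of 4, with Cd3g on none (sum 873 to 1017), and of the fibroblast markers 1 of 5 (sum 67.1 to 128). Of the dendritic cell markers 3 of 6 were detected on all arrays, and Flt3, Xcr1 and Clec9a on none. Their summed signal was 2204 in siGFP cells, 4631 with iron, 211 in siTfe3/Tfeb cells and 482 in siTfe3/Tfeb cells with iron. Itgax, an integrin chain that macrophages also make, carried that sum, with signals of 2108, 4514, 99.2 and 373 and knockdown differences of -4.45 without iron and -3.51 with iron. Ccr7 and Zbtb46 gave 0.14 and 0.17 with knockdown without iron and -0.12 and -0.14 with iron. The part of these markers in the results was not tested. Tfe3 had a signal of 12421, 11306, 7736 and 7315 in the order of the groups above, so that untreated siTfe3/Tfeb cells held 60.6%, and iron-loaded ones 68.4%, of the matching siGFP level. Tfeb had signals of 341, 319, 319 and 338, or 91.0% and 112%, and over its 4 probes it lay between 88.3% and 112% of siGFP. The groups labelled siTfe3/Tfeb therefore had less Tfe3 transcript, while the Tfeb probes did not separate them from siGFP, which holds for every direction called knockdown here.

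At its brightest probe and this scaling no member differed by 1.5-fold or more in any of the 4 comparisons. Tap1 passed that limit with iron in siGFP cells when its probes were averaged (log2 -0.63), and with knockdown in iron-loaded cells under median centring (0.65) and quantile normalization (0.60). The members are described by direction and by a 1.25-fold limit that was chosen after their values were seen. A difference of 1.25-fold is several times the SD from repeated spots, 0.063 on the log2 scale for the 8 members brighter than a log2 level of 2 and 0.10 for H2-Ab1. With iron in siGFP cells 7 of the 9 measured members were lower, where 54% of all 14241 measured genes were lower. Past 1.25-fold, 1 member was higher and 2 were lower, where 10.4% and 9.07% of all genes were. With iron in siTfe3/Tfeb cells 4 of 9 were lower against 51% of 14085 genes, and 1 member was higher and 1 lower past 1.25-fold, against 12.5% and 13% of all genes. With knockdown in cells without iron 2 of 9 were lower against 53.4% of 14278 genes, and 2 were higher and none lower past 1.25-fold, against 16.7% and 19.7%. With knockdown in iron-loaded cells none of 9 was lower against 52.8% of 14029 genes, and 3 were higher and none lower past 1.25-fold, against 12.9% and 16.9%. At 2-fold no member was called, where in the same order of comparisons 1.4%, 1.62%, 1.39% and 0.834% of all genes were higher and 0.267%, 0.454%, 1.83% and 1.33% were lower. With knockdown in iron-loaded cells these are 117 genes higher and 186 lower, or 164 and 142 under median centring, which turns the split.

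The median log2 difference of the 9 members was -0.11 with iron in siGFP cells, 0.015 for iron under siTfe3/Tfeb, 0.24 with knockdown without iron and 0.23 with knockdown with iron. The medians over all genes were -0.020, -0.0067, -0.028 and -0.020. The comparisons share arrays. The untreated siGFP array enters the first and the third, and the iron-loaded siGFP array the first and the fourth. The untreated siTfe3/Tfeb array enters the second and the third, and the iron-loaded siTfe3/Tfeb array the second and the fourth. A low or high value on 1 array therefore moves more than 1 of these medians.

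**Figure D1:**
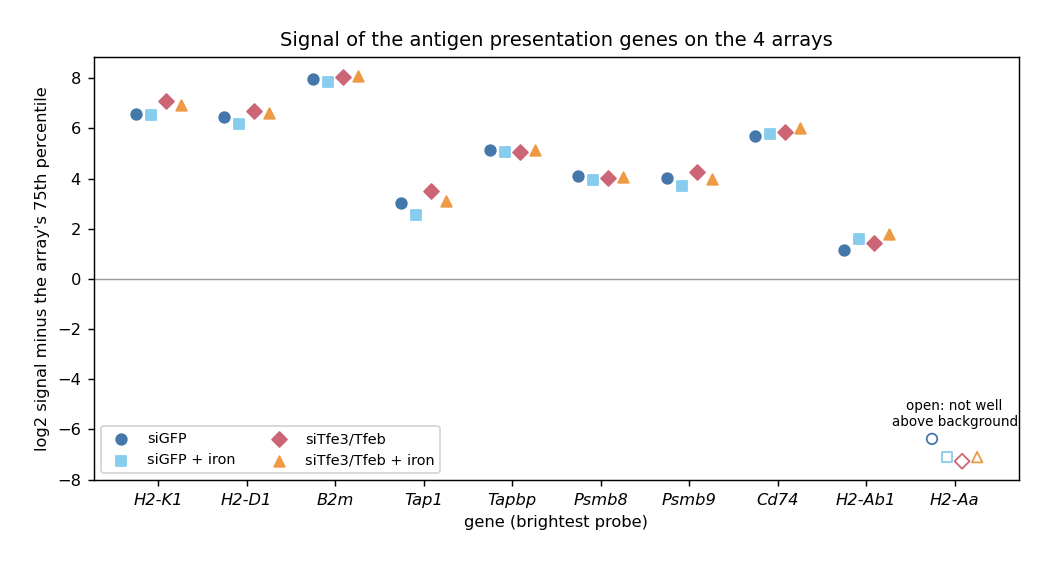
Level of each member on the 4 arrays, as log2 processed signal minus the array's 75th percentile (vertical axis), by gene (horizontal axis), with 1 point per array. Tap1 spans 0.96 over the arrays and Tapbp 0.08, and the open points of H2-Aa were not well above background.

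H2-K1 and H2-D1 are the classical class I heavy chains, which bind the peptide, and B2m encodes beta-2 microglobulin, their light chain. H2-K1 had processed signals of 58795 in siGFP cells, 58591 in siGFP cells with iron, 85737 in siTfe3/Tfeb cells and 72229 in siTfe3/Tfeb cells with iron. Its probe lies at chr17:34133055-34133114 (mm9, minus strand). Both siTfe3/Tfeb arrays were above both siGFP arrays, with log2 levels of 7.07 and 6.93 against 6.57 and 6.55. The knockdown difference was 1.42-fold without iron (log2 0.51) and 1.30-fold with iron (log2 0.38), each past 1.25-fold, although the second was under it with quantile normalization (0.28). The iron differences were -0.02 under siGFP and -0.14 under siTfe3/Tfeb, the first within the spot SD.

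H2-D1 had signals of 53748, 45147, 65746 and 58702 in the same order, at a probe at chr17:35403886-35403945 (mm9, plus strand). The iron-loaded siGFP array was the lowest, at a log2 level of 6.17, and the siTfe3/Tfeb arrays the highest, at 6.69 and 6.63, a gap within 2 spot SDs. With iron the log2 difference was -0.27 under siGFP and -0.06 under siTfe3/Tfeb. With knockdown it was 0.25 without iron and 0.46 with iron, or 1.19-fold and 1.38-fold, and the second passed 1.25-fold. B2m had signals of 156479, 146336, 167503 and 159234 (chr2:121978401-121978460, mm9, plus strand). Its 4 log2 levels lay between 7.87 and 8.07, and no neighbours in their order were more than 2 spot SDs apart. Its knockdown differences were 0.06 without iron and 0.20 with iron, and its iron differences -0.11 and 0.03. Under quantile normalization its knockdown differences were -0.03 without iron and 0.046 with iron, both within the spot SD.

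A second probe of H2-K1 and a dimmer second probe of B2m gave the same direction as the brightest probe in every comparison except B2m with iron in siTfe3/Tfeb cells, where they gave -0.29 against 0.03. The values differed in size. With iron in siGFP cells the second H2-K1 probe gave -0.32 against -0.02, and the dim B2m probe gave -0.35 against -0.11. With knockdown the second H2-K1 probe gave 0.27 without iron and 0.45 with iron, and the dim B2m probe 0.32 and 0.38. The dim B2m probe is named in the array design by another transcript record (chr2:121974599-121974658, mm9), with signals of 1257, 1001, 1615 and 1233.

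The class I heavy chains are close relatives, and the probes reflect that. The second H2-K1 probe and the brightest probes of H2-T23 and H2-L hold the same run of 29 bases, shown here in capitals because it limits how far their signals can be assigned to single genes. The other probes of the members shared no run of 25 bases with a probe of another gene. The sequences are those of the array files, 5′ to 3′, at chr17:34133984-34134043, chr17:36167338-36167574 and chr17:35403191-35403250 (mm9).
H2-K1 second probe: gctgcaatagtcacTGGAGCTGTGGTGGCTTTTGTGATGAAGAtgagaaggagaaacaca
H2-T23: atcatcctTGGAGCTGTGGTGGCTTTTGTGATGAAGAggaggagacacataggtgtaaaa
H2-L: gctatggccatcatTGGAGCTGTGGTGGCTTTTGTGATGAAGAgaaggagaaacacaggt
For knockdown without iron these 3 probes read 0.27, 0.34 and 0.36, and on the iron-loaded arrays 0.45, 0.38 and 0.46. With iron they gave -0.32, -0.13 and -0.25 in siGFP cells and -0.14, -0.10 and -0.14 in siTfe3/Tfeb cells, where H2-T23 took 0.019 under quantile normalization. The H2-L probe lies close to that of H2-D1 in the mm9 coordinates, so signals named H2-L and H2-D1 cannot be told apart here. BALB/c mice carry another MHC haplotype than the reference strain, and its effect on the match of the probes was not tested. Transcript parts (exon, intron or UTR) were not assigned to the probes, because no mm9 annotation was used here.

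**Figure D2:**
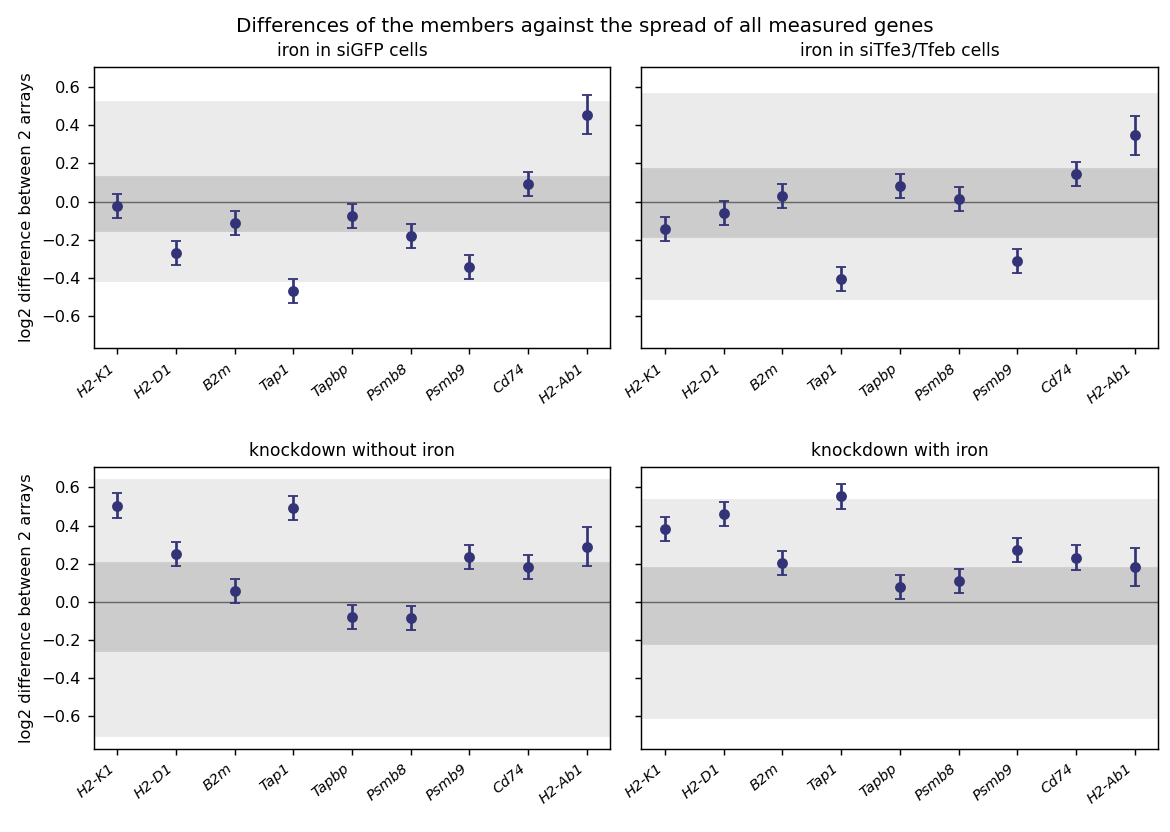
Log2 difference of each of the 9 measured members (points, with bars of 1 SD from repeated spots) in the 4 comparisons. The dark band holds the central 50% and the light band the range from the 5th to the 95th percentile of all measured genes, and Tap1 lies below the light band with iron in siGFP cells and just above it with knockdown in iron-loaded cells.

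The promoters of H2-K1, H2-D1 and B2m are shown because H2-K1 and H2-D1 stood higher with knockdown on the iron-loaded arrays, B2m encodes their partner chain, and their control regions are textbook examples of a shared module. In class I promoters a kB site binds NF-kB, an interferon response element binds interferon regulatory factors, and an X2 box and a Y box bind CREB-family factors and NF-Y together with RFX in a complex that recruits Nlrc5, or Ciita at class II genes. The sequences are from RefSeq promoter windows of GRCm38.p6, 250 bases before to 50 after the start site, which matched 8 of the 10 members. Cd74 and H2-Ab1 were not matched. Capitals mark, in order, matches to the kB letters GGGATTCCC, to the interferon response element core GAAANNGAA or GAANNGAAA on either strand, and to TGACG followed by ATTGG after 18 to 22 bases, the X2 and Y boxes. The letters and the spacing were chosen after the sequences were seen, and all motifs were searched on both strands. The stretches are chr17:34000351-34000462 (minus strand), chr17:35262919-35263030 (plus strand) and chr2:122147543-122147646 (plus strand), with that of the class II gene H2-Aa, chr17:34287859-34287902 (minus strand), for comparison.
H2-K1: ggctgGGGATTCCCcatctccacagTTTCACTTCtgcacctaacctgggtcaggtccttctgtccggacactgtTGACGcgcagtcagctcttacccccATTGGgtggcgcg
H2-D1: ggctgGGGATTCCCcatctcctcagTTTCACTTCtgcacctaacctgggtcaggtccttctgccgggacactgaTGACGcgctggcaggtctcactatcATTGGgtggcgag
B2m: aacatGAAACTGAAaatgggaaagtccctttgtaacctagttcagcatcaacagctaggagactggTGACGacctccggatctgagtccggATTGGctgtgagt
H2-Aa: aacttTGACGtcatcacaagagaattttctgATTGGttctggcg
The X2 and Y boxes stand 20 bases apart in H2-K1, H2-D1 and B2m and 21 in H2-Aa. Over all 32851 promoter windows 0.268% held such a spaced pair, 0.353% the kB letters and 14.8% the interferon response element core, so the last is common in any window of this length. The letters CACGTG, the core of the element that Tfe3 and Tfeb bind, stood in 7.15% of all windows and in none of the 8 members' windows. No match says only that these letters are not in these windows.

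**Figure D3:**
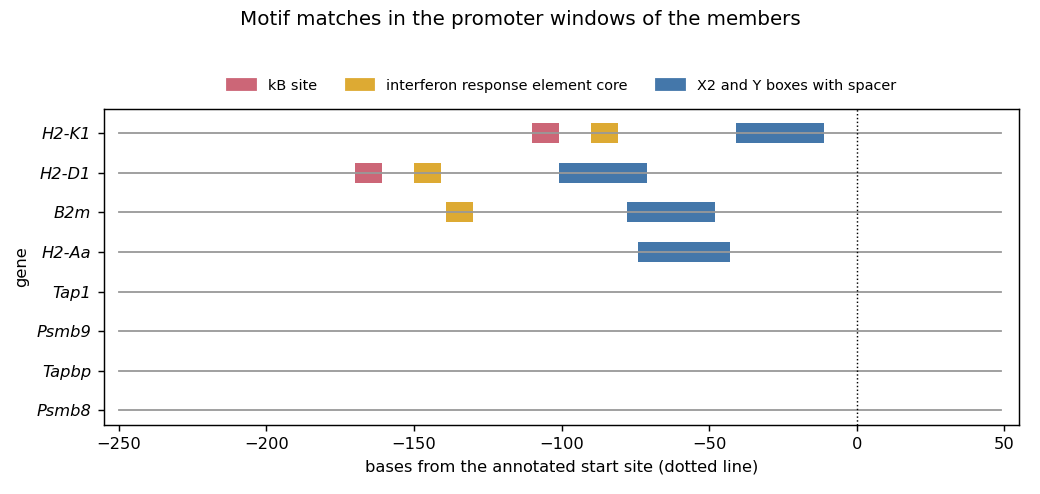
Position of each motif match in the promoter windows of the 8 members with a window (horizontal axis, bases from the annotated start site). The windows of H2-K1 and H2-D1 hold all 3 motifs in the same order, B2m holds 2, H2-Aa 1, and Tap1, Psmb9, Tapbp and Psmb8 hold none of them.

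Tap1 had the largest range of the measured members. Its neighbour Psmb9 gave the same directions in all 4 comparisons, as did H2-K1 and H2-D1 at their brightest probes. Tap1 encodes a chain of the TAP peptide transporter, and Psmb9 a catalytic subunit of the immunoproteasome. Tap1 had signals of 4984 in siGFP cells, 3650 in siGFP cells with iron, 7208 in siTfe3/Tfeb cells and 5062 in siTfe3/Tfeb cells with iron (chr17:34334022-34334081, mm9, plus strand). The iron-loaded siGFP array was the lowest and the untreated siTfe3/Tfeb array the highest, while the other 2 arrays lay within 2 spot SDs of each other. With iron Tap1 was 1.38-fold lower in siGFP cells (log2 -0.47) and 1.33-fold lower in siTfe3/Tfeb cells (log2 -0.41). With knockdown it was 1.41-fold higher without iron (log2 0.49) and 1.47-fold higher with iron (log2 0.55). Ranked among all measured genes of each comparison, these differences stood at percentiles 3.74, 8.60, 91.3 and 95.4. A dimmer second probe of Tap1, with signals of 985, 577, 1212 and 749, gave -0.79 and -0.59 with iron and 0.26 and 0.46 with knockdown.

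Psmb9 had signals of 10159, 8093, 12291 and 9239 (chr17:34319174-34319233, mm9, minus strand). Its order over the arrays was siTfe3/Tfeb, siGFP, siTfe3/Tfeb with iron and siGFP with iron, and only the middle pair lay within 2 spot SDs. With iron it was 1.27-fold lower in siGFP cells (log2 -0.35) and 1.24-fold lower in siTfe3/Tfeb cells (log2 -0.31). With knockdown it was 1.18-fold higher without iron (log2 0.24) and 1.21-fold higher with iron (log2 0.27). Both were under 1.25-fold, but quantile normalization took them past it (0.34 each), as median centring did with iron (0.37), and quantile normalization also took the iron difference under siTfe3/Tfeb past it (-0.34). A second Psmb9 probe was not well above background on any array. Tap1 and Psmb9 are transcribed away from each other from start sites 225 bases apart, at chr17:34187331-34187555 (GRCm38.p6). The whole stretch between them is shown, on the strand of Tap1, because these 2 members are neighbours and gave the same directions. H2-K1 and H2-D1 gave these directions too, so they are not particular to this pair.
Tap1 and Psmb9: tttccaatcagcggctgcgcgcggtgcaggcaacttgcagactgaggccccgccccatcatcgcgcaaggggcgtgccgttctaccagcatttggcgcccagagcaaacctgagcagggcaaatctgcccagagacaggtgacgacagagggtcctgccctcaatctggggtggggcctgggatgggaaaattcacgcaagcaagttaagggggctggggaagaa
None of the motifs searched matched in it, so it holds no capitals.

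Psmb8, another immunoproteasome subunit coded in the same part of the MHC, and Tapbp, which encodes tapasin, did not follow that pattern. Psmb8 had signals of 10770, 9625, 10432 and 9820 (chr17:34337771-34337830, mm9, plus strand). Its log2 levels lay between 3.94 and 4.12, with no neighbours more than 2 spot SDs apart, and its largest difference was -0.18, with iron in siGFP cells. Under quantile normalization its knockdown difference without iron changed sign, from -0.08 to 0.0082, and that for iron under siTfe3/Tfeb from 0.015 to -0.030. Tapbp had signals of 21624, 20780, 21021 and 20735 (chr17:34066022-34066081, mm9, plus strand), and its log2 levels, 5.05 to 5.13, spanned 0.08 in all. A dimmer Tapbp probe gave -0.30 with iron in siGFP cells, against -0.07 at the brightest, and between -0.15 and 0.12 in the other comparisons.

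In all, the 7 class I members were below 0 with iron in siGFP cells in 7 of 7 cases, with a median of -0.18. Of these, H2-K1, B2m and Tapbp were within 2 spot SDs. With iron in siTfe3/Tfeb cells 4 of 7 were below 0, with a median of -0.06. With knockdown 5 of 7 were above 0 without iron (median 0.24) and 7 of 7 with iron (median 0.27). Of these, B2m was within 2 spot SDs without iron, and Tapbp and Psmb8 were with iron. Under quantile normalization 5 of 7 stayed below 0 with iron in siGFP cells, where H2-K1 took 0.08 and B2m 0.01. The 7 of 7 above 0 with knockdown in iron-loaded cells did not change there, although B2m, at 0.046, was within the spot SD. The iron-loaded siGFP array enters the comparisons of both 7 of 7 counts, so these counts are not separate results. In bulk cultures a smaller share of cells with a transcript and less of it per cell cannot be told apart.

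**Figure D4:**
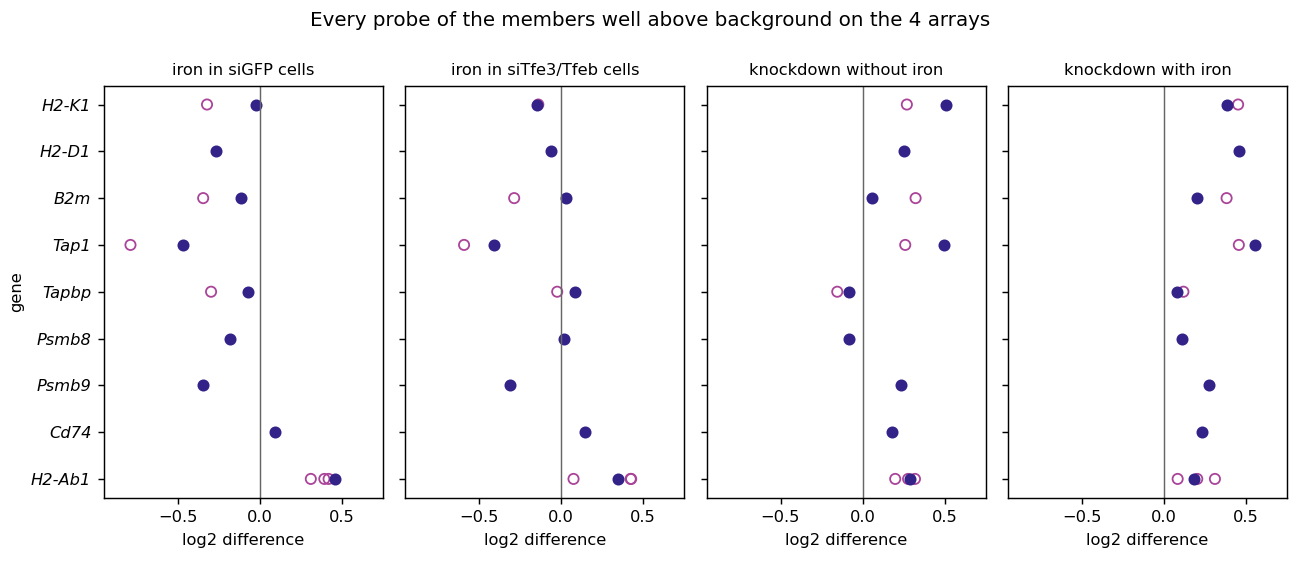
Log2 difference at every probe of the members that was well above background on all 4 arrays, by comparison, with the brightest probe filled and the others open. Both Tap1 probes lie below 0 with iron and above 0 with knockdown, and all 4 H2-Ab1 probes lie above 0 in each comparison.

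With iron in siGFP cells the 2 measured class II members were higher, whereas all 7 class I members were lower. Past 2 spot SDs, 1 member was higher (H2-Ab1) and 4 were lower (H2-D1, Tap1, Psmb8 and Psmb9). Cd74, H2-K1, B2m and Tapbp were within 2 spot SDs, and quantile normalization took H2-K1 and B2m above 0. H2-Ab1, the beta chain of the class II molecule I-A, had signals of 1377 in siGFP cells, 1911 with iron, 1730 in siTfe3/Tfeb cells and 2051 in siTfe3/Tfeb cells with iron (chr17:34406296-34406355, mm9, plus strand). The untreated siGFP array was the lowest, and the other 3 were each within 2 spot SDs of their neighbour. With iron H2-Ab1 was 1.37-fold higher in siGFP cells (log2 0.46) and 1.27-fold higher in siTfe3/Tfeb cells (log2 0.35). With knockdown it was 0.29 higher without iron and 0.18 higher with iron on the log2 scale. With the mean over its probes the iron difference under siTfe3/Tfeb, 0.32, was just under 1.25-fold. The 3 other probes gave 0.31 to 0.42 with iron in siGFP cells, 0.07 to 0.43 with iron in siTfe3/Tfeb cells, 0.20 to 0.32 with knockdown without iron and 0.08 to 0.31 with iron. One of these overlaps the brightest by 51 bases with 1 mismatch, so that pair does not give separate evidence.

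Cd74 had signals of 31839, 34373, 37076 and 38181, with both siTfe3/Tfeb arrays above both siGFP arrays and, within each siRNA group, iron above no iron. Among neighbours in this order, only the siTfe3/Tfeb arrays were more than 2 spot SDs apart. The log2 differences were small, 0.09 and 0.14 with iron and 0.18 and 0.23 with knockdown, and none reached 1.25-fold, except the last under median centring (0.33). H2-Aa, the alpha chain of I-A and the partner of H2-Ab1, has 1 probe on the array (chr17:34421285-34421344, mm9, minus strand), with signals of 7, 5, 4 and 4. It was not well above background on any array and gets no fold change, while the H2-Ab1 probes gave signal on all 4. Whether this probe matches the BALB/c transcript was not tested.

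The pathway around the members was described from lists chosen with earlier results of these data known. Other class I heavy chains had 23 genes on the array, of which 19 were measured with iron in siGFP cells. Of these, 16 of 19 were below 0 (median -0.24), and 15 of 19 in siTfe3/Tfeb cells (median -0.10). With knockdown 13 of 19 were above 0 without iron (median 0.26) and 16 of 20 with iron (median 0.35), and 8 and 10 passed 1.25-fold upward against 2 and 2 downward. Over all genes 16.7% and 12.9% passed that limit upward and 19.7% and 16.9% downward. The sign counts of this list and of those that follow stand against 54% and 51% of all genes below 0 with iron and 53.4% and 52.8% with knockdown. Only the H2-T23 and H2-L probes shared a run with a member probe, and whether other transcripts of the family bind these probes was not tested.

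The largest differences in this list were at H2-T10, a non-classical class I chain, with signals of 896, 825, 1829 and 1133. Both siTfe3/Tfeb arrays were above both siGFP arrays, with knockdown differences of 0.99 without iron and 0.54 with iron, while iron gave -0.14 under siGFP and -0.59 under siTfe3/Tfeb. H2-T24, another chain of that region, had signals of 1857, 1290, 1454 and 1092, with -0.54 and -0.31 for iron, the largest difference of the list with iron in siGFP cells. Unlike most of the list it was lower with knockdown (log2 -0.39 and -0.16), at both of its probes. Cd1d1, which presents lipids, was well above background only on the 2 iron-loaded arrays where its knockdown difference was -0.79, the largest of the list with iron.

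Genes of class I peptide supply and loading were mostly lower with knockdown, where most members were higher. The members Tapbp and Psmb8 were also below 0 without iron (-0.08 each). Of 12 measured genes 9 were below 0 with knockdown, both without iron (median -0.12) and with iron (median -0.15). Hspa5, the main chaperone of the endoplasmic reticulum, had signals of 65772, 70922, 32017 and 44252 and was 2.11-fold lower with knockdown without iron (log2 -1.08) and 1.52-fold lower with iron. Calr, the calreticulin of the loading complex, had signals of 14085, 16711, 7650 and 11214, with 0.23 and 0.65 for iron. For both genes the siTfe3/Tfeb arrays were below the siGFP arrays. With iron the median of the list was 0.08 under siGFP and -0.000070 under siTfe3/Tfeb, where 6 of 12 were on each side.

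The other proteasome forms had 7 measured genes, and with iron 5 of 7 were above 0 under siGFP and 7 of 7 under siTfe3/Tfeb (medians 0.15 and 0.21). Psmb6, a constitutive catalytic subunit that the immunoproteasome replaces with Psmb9, had signals of 53536, 73267, 50214 and 75619, so both iron-loaded arrays lay above both untreated ones. Its log2 difference with iron was 0.44 under siGFP and 0.69 under siTfe3/Tfeb, opposite in sign to the -0.35 and -0.31 of Psmb9. Psmb10, the third catalytic subunit of the immunoproteasome, had signals of 27649, 23619, 16618 and 17567 and was lower on both siTfe3/Tfeb arrays (log2 -0.77 without iron and -0.35 with iron). The 3 inducible subunits thus differed with knockdown without iron, with Psmb9 at 0.24, Psmb8 at -0.08 and Psmb10 at -0.77.

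**Figure D5:**
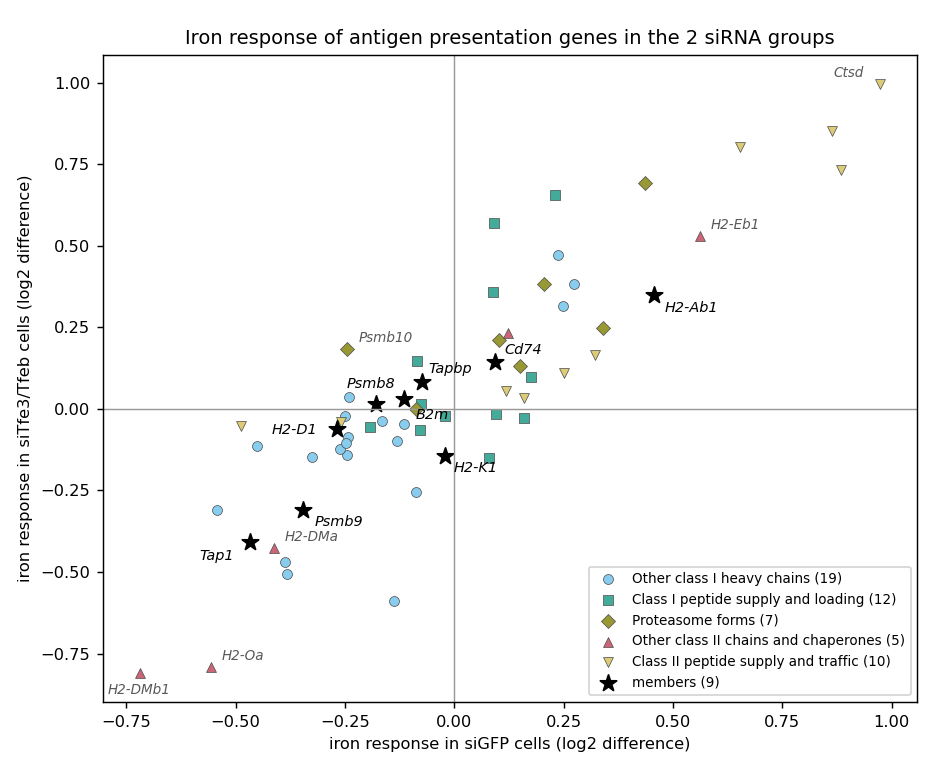
Log2 difference with iron under siGFP (horizontal axis) and under siTfe3/Tfeb (vertical axis) for the 9 measured members (stars) and the genes of 5 lists, with the number of genes in the legend. Tap1 and Psmb9 lie lower left, H2-Ab1 and H2-Eb1 upper right, and H2-DMa, H2-DMb1 and H2-Oa lower left.

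The other class II genes did not share a direction with iron. Of 8 on the array 5 were well above background on all arrays, and H2-Eb2, H2-Ea-ps and H2-DMb2 on none. H2-Eb1, the beta chain of I-E, had signals of 1638, 2447, 1599 and 2148 and stood higher on both iron-loaded arrays, by 0.56 and 0.53 on the log2 scale, like H2-Ab1. Both chains of H2-DM were lower on them, with -0.41 and -0.43 for H2-DMa and -0.72 and -0.81 for H2-DMb1. The chains of H2-DO, the modulator of H2-DM, went apart, with -0.56 and -0.79 for H2-Oa and 0.12 and 0.23 for the dim H2-Ob, whose signals were 64.2, 70.7, 71.8 and 78.5. H2-DMb1, the beta chain of H2-DM, had signals of 435, 268, 139 and 74.1 and was 3.21-fold lower with knockdown without iron (log2 -1.68) and 3.42-fold lower with iron (log2 -1.77), the largest difference in the list. H2-Oa, with signals of 503, 346, 937 and 504, was 0.86 and 0.62 higher with knockdown. Each of these genes rests on 1 measured probe.

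The list of class II peptide supply, the endosomal proteases and traffic proteins that make and handle class II peptides, lay mostly above 0 with iron, in 8 of 10 genes in each siRNA group (medians 0.29 and 0.14). Ctsd, the lysosomal protease cathepsin D, had signals of 40038, 79589, 37167 and 69022 and was 1.96-fold and 1.99-fold higher with iron. March1, a ubiquitin ligase that removes class II molecules from the surface, had signals of 3220, 2325, 3006 and 2697, with -0.49 for iron under siGFP and -0.05 under siTfe3/Tfeb. With knockdown the list gave 4 of 10 above 0 without iron and 5 of 10 with iron, and its most different genes were Lgmn (0.37) and Cd63 (-0.31).

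Among 24 regulators, which include the factors that bind the promoter module shown above and the interferon receptors and Janus kinases upstream, 16 of 24 were below 0 with iron under siGFP (median -0.08) and 13 of 23 under siTfe3/Tfeb (median -0.16). Irf1, an interferon regulatory factor, had signals of 4553, 3152, 3970 and 2776, with -0.55 and -0.41 for iron and -0.24 and -0.10 for knockdown. It was lowest on the iron-loaded siTfe3/Tfeb array, but within 2 spot SDs of the iron-loaded siGFP array, so their order was not resolved. The part of Irf1 in the values of the members was not tested.

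Rfx5, a subunit of the RFX complex, had signals of 165, 89.0, 209 and 118, with -0.90 and -0.72 for iron and 0.31 and 0.49 for knockdown, the same directions as Tap1. A second Rfx5 probe gave the same signs, with -0.37 and -0.54 for iron and 0.27 and 0.09 for knockdown. Rfx5 is dim, and at log2 levels from -4 to -2, where its iron-loaded arrays lay, the spot SD was 0.27. Its 0.49 with knockdown in iron-loaded cells is therefore within 2 spot SDs. Nlrc5, the class I transactivator, had signals of 1465, 1402, 1338 and 1298, and its differences, -0.08, 0.06, -0.17 and -0.03, were small at its brightest probe. A second Nlrc5 probe gave -0.32, 0.28, -0.12 and 0.48. Ciita, the class II transactivator, was near background, with signals of 38.5, 29.3, 37.5 and 17.4, the last not well above background, so this probe gave values only in siGFP cells with iron (-0.41) and with knockdown without iron (-0.08). Another Ciita probe gave 0.26 for iron under siTfe3/Tfeb and 0.0046 with knockdown without iron. Nfyc, a subunit of NF-Y, was lower with knockdown, at -0.74 without iron and -0.76 with iron. Socs1, an inhibitor of Janus kinases, had -0.89 with knockdown without iron, the largest value of the list there.

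Costimulatory genes, which give T cells the further signal needed beside an MHC molecule, had 6 measured genes of 7. With knockdown 5 of 6 were above 0 without iron (median 0.57) and 2 of 6 with iron (median -0.04). Cd40 had signals of 153, 120, 346 and 266 and was 2.20-fold higher with knockdown without iron and 2.34-fold higher with iron. Cd274, the ligand of the inhibitory receptor PD-1, had signals of 239, 349, 451 and 648, higher with iron and with knockdown in each of the 4 comparisons (0.53, 0.62, 0.88 and 0.97). Cd86 had signals of 565, 979, 751 and 776, with 0.78 for iron under siGFP and 0.15 under siTfe3/Tfeb.

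At the brightest probes and this scaling the response to iron differed between the siRNA groups by at most 0.21 on the log2 scale for every measured member. The difference of iron responses, siTfe3/Tfeb minus siGFP, was 0.21 for H2-D1, 0.19 for Psmb8, 0.16 for Tapbp, 0.14 for B2m, 0.06 for Tap1, 0.05 for Cd74, 0.04 for Psmb9, -0.11 for H2-Ab1 and -0.12 for H2-K1. Its spot SD was 0.089, and 0.14 for H2-Ab1, so at this scaling only H2-D1 and Psmb8 passed 2 spot SDs. Psmb8 did not pass with quantile normalization or normexp background correction (0.17 each). Under median centring, which moved the median over all genes by 0.071, H2-D1 took 0.28 and Psmb8 0.27. There B2m (0.21) and Tapbp (0.23) also passed, as Tapbp did with the mean over its probes (0.22). The dimmer Tapbp probe gave 0.27. Of the 9 members 2 were below 0, where 50% of 13827 genes were. The second H2-K1 probe gave 0.18 in place of -0.12, and the mean of both probes 0.030. The gene with the largest such difference of each list was Icosl (-0.84), a costimulatory ligand, Hspa5 (0.48), Socs3 (-0.45), H2-T10 (-0.45), March1 (0.43), Psmb10 (0.43) and H2-Oa (-0.24). In the costimulatory list Cd86 gave -0.63 and Icam1, an adhesion molecule, 0.49.

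The pattern of Tap1, the member with the largest range, was compared with all 13826 other genes well above background on the 4 arrays, as the root mean square distance of the log2 levels centred on each gene's mean. The nearest were Cggbp1 at 0.017, Zscan2 at 0.025, Heca and Tjp3 at 0.032 and Gm4221 at 0.034. Zscan2 (log2 levels -4.61 to -3.66) and Gm4221 (-4.65 to -3.72) are dim. At such levels the spot SD was 0.27 to 0.48, far above these distances, so their places are within spot noise. Psmb9 stood at rank 548 with a distance of 0.145, H2-D1 at 774 with 0.164 and H2-K1 at 1131 with 0.187, and H2-Ab1, at rank 9491, was the farthest of the members. Over 4 arrays many genes share such a pattern, and likeness here says nothing of shared function or control.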

How the data were processed

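The labels describe total RNA labelled with Cy3 on Agilent SurePrint G3 mouse arrays. Scanning output came from Agilent Feature Extraction 12.0.3.1, per the submitters' processing notes. For every spot the deposited files hold a processed intensity, per the file headers background-subtracted and detrended, with flags for background, saturation and outliers. The authors' deposited value table holds log2 values of the same arrays. Against the scanner values its differences had a slope of 1.0, and each probe was centred on its median over the 4 arrays. Its column medians were -0.0042, 0.022, -0.087 and 0.0013.

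Here log2 of the processed intensity minus the array's 75th percentile over non-control probes was used. Spots of a probe were averaged, outlier-flagged spots left out (3 probes lost), and the brightest probe of a gene by its mean over the arrays was kept. Of 56605 probes, 33762 were named by accession and 9871 by symbol through a RefSeq table (GRCm38.p6, names only), and 12967 had no name. A gene entered a comparison when well above background on both of its arrays. Genes were counted from a 2-fold difference. With 1 array per group no test was made, and precision rests on 300 repeated probes, most of them bright. Above a log2 level of 2 the spot SD rests on 1074 combinations of probe and array. From 0 to 2, the range of H2-Ab1, it rests on 8 (SD 0.10). From -2 to 0 it rests on 6 (SD 0.11), from -4 to -2 on 36 (SD 0.27) and below -4 on 9 (SD 0.48). Arrays shared 1 slide and 1 scan run.

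The members and lists were chosen with earlier results of these data known. Named are the members, Tfe3, Tfeb, Ciita, Nlrc5, Irf1, Rfx5, the gene with the largest difference of each list in each comparison, and the 5 genes nearest in pattern to Tap1. H2-T23, H2-L, H2-Eb1, H2-DMa, H2-Ob, Icam1 and the dendritic markers were added after their values were seen. Some genes of the lists are not reported here. The 2-fold counting was tested on simulated data with spot noise only. Those data held no variation between cultures and did not cover the 1.25-fold limit. Alternatives were median centring, quantile normalization, normexp (limma 3.58.1, R 4.3.3, offset 50), the deposited log2 table, the mean over probes, no background filter, and limits of 1.5-fold and, added after the values were seen, 1.25-fold. Python 3.11.15 was used.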

Additional observations from a re-analysis of the deposited data

How the results depend on the processing

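Of 270 member values under other settings, 235 moved by less than 1 spot SD and 35 by more, 16 of them under quantile normalization, 11 with the mean over all probes and 8 with median centring. None that was past 2 spot SDs at the main setting changed sign, while some smaller values did, as at H2-K1, B2m and Psmb8 under quantile normalization. The median of the members was with the mean over all probes -0.19 for iron under siGFP and -0.061 for iron under siTfe3/Tfeb, and 0.33 with knockdown in iron-loaded cells under median centring. Counts over all genes moved with the limit and the filter. In the order iron under siGFP, iron under siTfe3/Tfeb, knockdown without iron and knockdown with iron, the main counts were 199, 228, 199 and 117 higher and 38, 64, 261 and 186 lower. At 1.5-fold they were 595, 645, 894 and 557 higher and 261, 476, 1081 and 786 lower. At 1.25-fold, chosen after seeing the data, they were 1487, 1758, 2383 and 1807 higher and 1291, 1825, 2816 and 2370 lower. With no background filter they were 898, 581, 924 and 451 higher and 672, 1277, 1055 and 1540 lower. With normexp, which compresses dim genes by its offset, they were 118, 145, 78 and 45 higher and 19, 17, 148 and 87 lower. Median centring turned the split with knockdown in iron-loaded cells to 164 higher and 142 lower.

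No paired analysis was possible because each group holds 1 array. No array can be left out either, since a comparison would lose a group. Signal over background limits H2-Aa, Ciita and the dim second probes, and variation between cultures was not measured.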
